A study of Homo sapiens with 7 samples.

Results

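RNF44 encodes a RING finger protein, and its transcript was close to lost in some of the libraries described here. The gene was chosen by its level: it was picked for a graded fall from the control library to the library G13, so the levels below are a description with no test. Its members are the 127 isoforms that the deposited table lists under its gene ID (ENSG00000146083.12), of 386982 isoforms and 14294 genes in all. Near loss describes G13 and G14, which held 9 and 15 reads of the gene, and not G3, G5, G11 and G12, which held 101 to 554 reads.

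Polyadenylated RNA was profiled from HUES66, a line of human embryonic stem cells, with long PacBio reads of joined cDNA. There were 7 libraries, 1 for each group, all described as piggyBac (a transposon used to insert transgenes), all given doxycycline at 1 µg/ml and all labelled 24 h. The control has the genotype WT, and the other 6 have the genotype RBFOX2 isoform KD, in which the RNA-cutting enzyme Cas13d was directed at isoforms of the splicing regulator RBFOX2. By their titles, id 178147 is G3, 178149 is G5, 178136 is G11, 178135 is G12, 178145 is G13 and 178146 is G14. The labels do not say which isoform an id denotes. Without replicates, no difference could be set against the spread between cultures. Intervals are at 95% and cover counting error only, for reads without molecular identifiers. In bulk RNA, fewer cells with the transcript and less of it in each cell cannot be told apart.

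Many RING finger proteins are E3 ubiquitin ligases. An E1 enzyme activates ubiquitin, an E2 enzyme carries it, and the RING domain of the E3 brings the loaded E2 to a substrate, which is then marked for degradation or for another fate. RNF44 has a RING of the H2 type near its C terminus. In melanoma cells it has been linked to degradation of the α1 catalytic subunit of AMPK, the cellular energy sensor.

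In GENCODE 29 (GRCh38) the gene spans 176526697 to 176538025 of chromosome 5, on the minus strand. Its full-length coding transcript, ENST00000274811, has 11 exons and 4155 nt. The coding part (176529031 to 176532472, 1296 nt) begins in the second exon, so the first exon is 5′ UTR, and the last exon (176526697 to 176529090, 2394 nt) is mostly 3′ UTR. Nearly all reads began in 1 of 2 annotated first exons. The downstream one, at 176536940 to 176537420, belongs to ENST00000274811, and the upstream one, at 176537731 to 176538025, belongs to ENST00000513029, which GENCODE classes as a target of nonsense-mediated decay.

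The most read 5′ end of RNF44, at 176537411, lies 9 bases before the start that RefSeq gives the gene (176537402), which was itself the next most read. The 250 bases before that start are shown because most RNF44 reads of every library began in the first exon that this stretch borders and overlaps (RefSeq, GRCh38.p14, chr5:176537403-176537652, minus strand, 5′ to 3′).

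RNF44 promoter: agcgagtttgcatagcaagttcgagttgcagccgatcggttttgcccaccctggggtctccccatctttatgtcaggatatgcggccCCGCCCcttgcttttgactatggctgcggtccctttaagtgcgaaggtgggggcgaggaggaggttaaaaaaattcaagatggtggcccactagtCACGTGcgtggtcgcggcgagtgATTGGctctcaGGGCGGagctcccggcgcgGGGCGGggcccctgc

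Capitals mark matches to motifs that were searched on both strands. The GC box GGGCGG matched 3 times, beginning 163, 34 and 15 bases before the start, and 42.6% of 35116 promoter stretches of the same length held it. The E box CACGTG matched once (6.35% of promoters), the CCAAT box CCAAT once on the other strand (32.0%), and the TATA box TATAAA did not match (10.7%). These matches are letters in a window, not shown sites of binding. The stretch is 60.8% G or C.

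The libraries held 16801849 (control) to 26678542 reads (G12), and 3 reads were worth 0.112 to 0.179 TPM. TPM in these data is not divided by transcript length: it is a gene's reads over all reads of the library, scaled. The targeted gene, RBFOX2, was at 107 TPM in the control, 106 in G14, 96.8 in G5, 88.5 in G12, 82.9 in G11, 55.9 in G13 and 42.1 in G3. Of 10 pluripotency markers, 9 were in the table and SOX2 was not. The 9 summed to 1692 to 2143 TPM in a library, most of it DPPA4 and POU5F1. Single markers went both ways: POU5F1 was below the control in all 6 G libraries (log2 ratios -0.64 to -1.28), NANOG was at least 2-fold lower in 4 and L1TD1 at least 2-fold higher in 5. In those 5 a 2-fold rise was called for 0.533% (G5) to 3.97% (G14) of all genes. NANOG passed the minimum mean of 5 TPM used below only with the control counted, so that filter favoured a lower value in the G libraries. At least 2-fold lower were 0 of 9 in G5 and G3 and 1 in each of G11 and G12 (11.1%, beside 10.4% and 8.79% of all genes). In G14 it was 2 of 9 (22.2%, beside 18.9%) and in G13 3 of 9 (33.3%, beside 14.6%). Of 10 markers of differentiated cells 7 had no row, PAX6, SOX1, SOX17 and GATA6 among them, and TBXT and HAND1 never passed 0.119 TPM. Only isoforms with a control read are listed, so a missing row does not show absence from a G library. The list summed to 16.6 TPM in the control, 16.7 in G5, 30.3 in G3, 6.86 in G11, 4.83 in G12, 3.25 in G14 and 1.62 in G13, nearly all of it COL1A1, a collagen gene. This sum moved with RNF44 from G11 to G13, and its part in the RNF44 result was not tested.

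RNF44 was represented by 613 reads in the control, or 36.5 TPM. It had 554 reads (21.8 TPM) in G5, 332 (18.6 TPM) in G3, 140 (6.72 TPM) in G11 and 101 (3.79 TPM) in G12. Only 15 reads (0.716 TPM) were found in G14 and 9 (0.395 TPM) in G13. The control was the highest library, G5 and G3 came next, G11 and G12 were lower, and G14 and G13 held few reads.

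**Figure D1:**
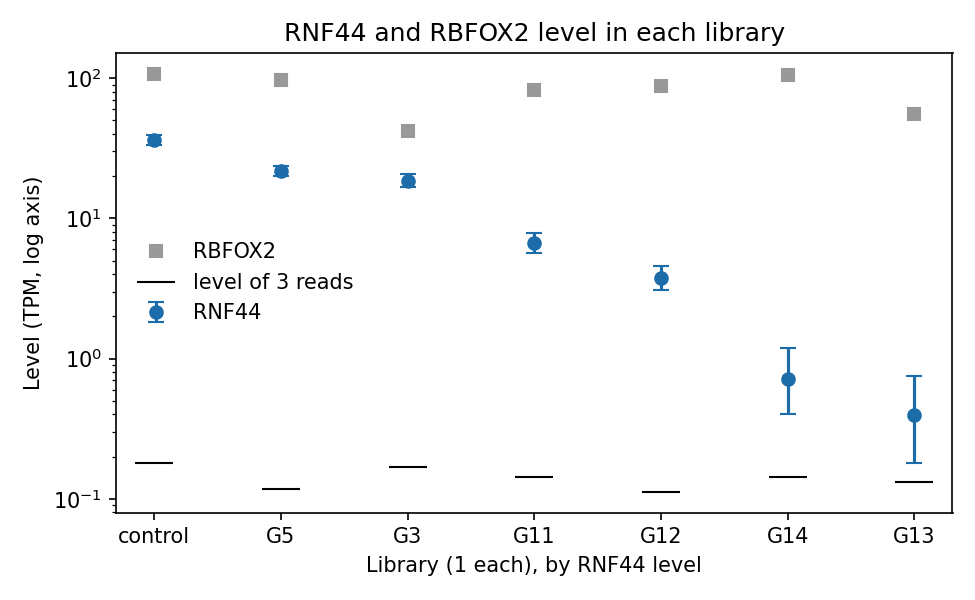
RNF44 level (circles, TPM on a log axis, bars are exact Poisson 95% intervals) in each of 7 libraries, with RBFOX2 (squares) and the level of 3 reads (dashes). RNF44 runs from 36.5 TPM in the control to 0.395 TPM in G13, while RBFOX2 is lowest in G3, at 42.1 TPM.

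As a share of the control, the RNF44 level was 59.7% in G5 (53.1 to 67.0), 51.0% in G3 (44.5 to 58.4), 18.4% in G11 (15.2 to 22.2) and 10.4% in G12 (8.32 to 12.8). It was 1.96% in G14 (1.09 to 3.26) and 1.08% in G13 (0.492 to 2.07). The G13 value is a 92.4-fold lower level than the control, with an interval of 48.4-fold to 203-fold, and that of G14 is 50.9-fold (30.7 to 91.6). Taking each library against the next higher one, the interval held 100% only for G13 against G14 (55.1%, 21.3 to 135), so the order of the last pair could not be told at this depth. For the other neighbours the interval did not hold 100%, most narrowly G3 against G5 (85.5%, 74.4 to 98.1). The gene was picked for this graded order, so these steps describe it and support nothing.

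The order of RNF44 was not that of the total level of the targeted gene. That total sums all RBFOX2 isoforms, so it does not show how far the isoform targeted in a library was lowered. RBFOX2 was at 39.2% of the control in G3, the lowest of its values, where RNF44 was at 51.0%. In G14 RBFOX2 was at 98.6% while RNF44 was at 1.96%. In G13 RBFOX2 was at 52.2% and RNF44 at 1.08%.

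The fall was then set beside all 7877 genes with a mean of at least 5 TPM, on the scale log2(TPM + 0.5), which understates ratios of low genes. The log2 ratio of RNF44 to the control was -0.73 in G5, -0.95 in G3, -2.36 in G11, -3.11 in G12, -4.93 in G14 and -5.37 in G13, with a median of -2.73. It was thus past 2-fold lower in 4 of the 6 G libraries. The share of all genes compared that were at least 2-fold lower was 10.1% in G5, 5.14% in G3, 10.4% in G11, 8.79% in G12, 18.9% in G14 and 14.6% in G13, and nothing is read from these shares for RNF44, which was picked on this contrast. Counted from the lowest ratio, RNF44 ranked 1138 in G5 and 466 in G3, but 18 in G11, 13 in G12, 3 in G14 and 3 in G13. These ranks describe the choice of the gene and support nothing.

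**Figure D2:**
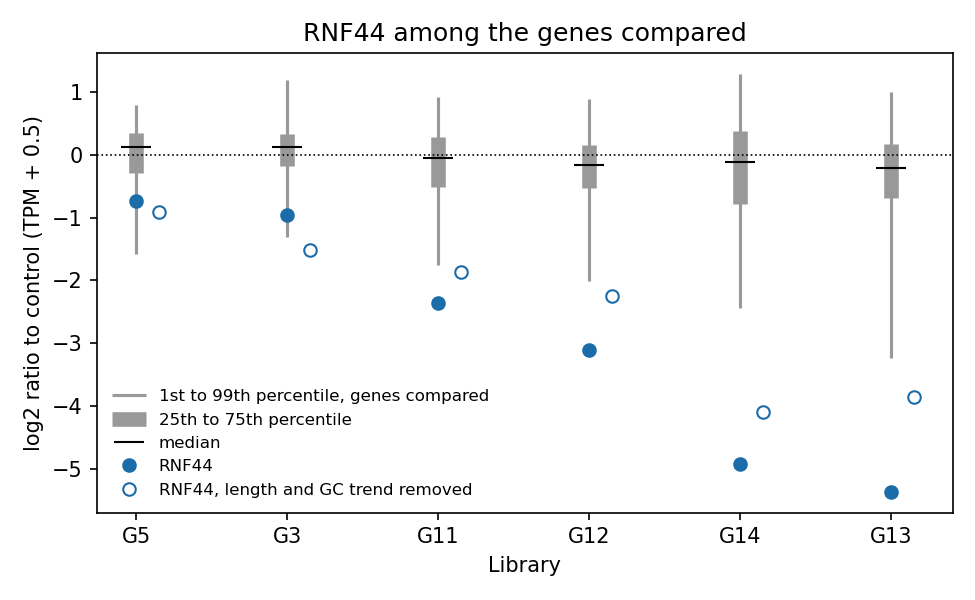
Log2 ratio to the control, on log2(TPM + 0.5), of RNF44 (filled circles), of RNF44 with the length and GC trend removed (open circles) and of the 7877 genes compared (grey, percentiles; black, median), in the 6 G libraries. RNF44 lies inside the grey 1st to 99th percentile line in G5 and G3 and below it in G11, G12, G14 and G13.

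Transcript length and GC content moved with the ratios. Over its annotated isoforms RNF44 averaged 3984 nt and 60.5% GC, at percentiles 76.3 and 87.9 of the genes with both values. In the fifth of genes with the highest GC content, which holds RNF44, the median log2 ratio was -0.10 in G5, 0.21 in G3, -0.56 in G11, -0.62 in G12, -0.90 in G14 and -0.88 in G13. In the fifth with the lowest GC content it lay between 0.07 (G12) and 0.27 (G14). With a quadratic trend of length and GC removed, the RNF44 ratio was -0.91 in G5, -1.51 in G3, -1.87 in G11, -2.25 in G12, -4.10 in G14 and -3.86 in G13. With the trend removed the ratio was thus nearer to 0 in G11 to G14 and farther from it in G3 and G5, and it stayed below 0 in all 6. The part of base composition in the result was not tested further.

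A feature of the table bears on the size of the fall in G3 and G5. Every listed isoform had at least 1 control read, so RNF44 isoforms seen only in a G library are not in its total. Of the 127 isoforms, 87 had a single control read, and these held 87 of the 613 control reads (14.2%). The same isoforms held 9 reads in G3 and 18 in G5, or 9.74% and 13.7% of the control level. Over all genes compared, isoforms with a single control read were at 36.2% (G13) to 44.2% (G3) of the control. The 14 RNF44 isoforms with at least 5 control reads, a setting chosen after seeing the data, gave 60.7% in G3 (52.3 to 70.3), 69.8% in G5 (61.4 to 79.5), 21.9% in G11, 11.7% in G12, 1.73% in G14 and 0.635% in G13. The graded order was the same, with smaller differences from the control in G3 and G5.

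Isoforms holding at least 5% of all RNF44 reads numbered 4, and together they held 1205 of 1764 reads (68.3%). Each is named by its reference ID or, where the table gives a hashed ID, as a hashed isoform numbered by reads. Hashed isoform 1 (176526703 to 176537411, 28.1% of all RNF44 reads) and ENST00000274811.9 (176526703 to 176537402, 20.5%) start in the downstream first exon. Hashed isoform 2 (176526704 to 176537982, 11.7%) and hashed isoform 3 (176526703 to 176537942, 7.99%) start in the upstream one. All 4 end within the same few bases, so they run the length of the gene.

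Hashed isoform 1 had 146 control reads, then 183 in G5, 99 in G3, 40 in G11, 21 in G12, 4 in G14 and 2 in G13. Its level was 82.7% of the control in G5 (66.2 to 104), 63.8% in G3 (48.9 to 83.0), 22.1% in G11 (15.2 to 31.5), 9.06% in G12 (5.44 to 14.4), 2.20% in G14 (0.591 to 5.75) and 1.01% in G13 (0.121 to 3.71). In G5 the interval held 100%, and in the other 5 it did not.

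ENST00000274811.9, the annotated coding form, had 122 reads in the control, 112 in G5, 72 in G3, 27 in G11, 26 in G12, 2 in G14 and 1 in G13. It was at 60.6% of the control in G5 (46.5 to 79.0) and 55.6% in G3 (40.9 to 74.95), both below the control by more than counting error. It was at 17.9% in G11 (11.3 to 27.3), 13.4% in G12 (8.43 to 20.6), 1.32% in G14 (0.157 to 4.85) and 0.604% in G13 (0.0152 to 3.43).

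Hashed isoform 2 had 61 reads in the control, 66 in G5, 45 in G3, 22 in G11, 11 in G12, 2 in G14 and 0 in G13. Hashed isoform 3 had 40, 52, 33, 8, 7, 1 and 0 reads in the same order of libraries. For both, the intervals of G3 and G5 held 100% (46.2 to 104 and 49.7 to 102.9 for hashed isoform 2, 47.5 to 126 and 55.7 to 133 for hashed isoform 3). In G11 they were at 29.1% (17.0 to 48.1) and 16.1% (6.52 to 34.9) of the control, and in G12 at 11.4% (5.39 to 21.8) and 11.02% (4.17 to 24.9). The 0 reads of G13 allow up to 4.59% and 7.12% of the control by the exact interval.

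**Figure D3:**
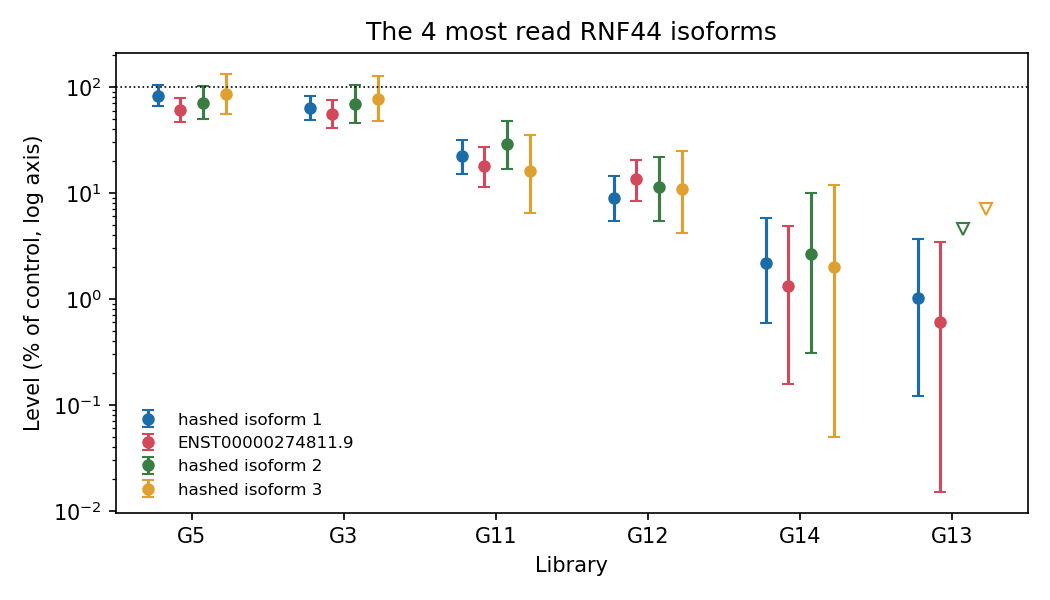
Level of the 4 most read RNF44 isoforms as a percent of the control (log axis, bars are exact 95% intervals, open triangles mark the upper limit where no read was found) in the 6 G libraries. Within each library the intervals of the isoforms overlap one another, and in G12, G14 and G13 all of them lie below 25% of the control.

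The 4 isoforms together were at 73.9% of the control in G5 (64.0 to 85.2) and 63.5% in G3 (53.9 to 74.8). The other 123 isoforms together were at 38.1% (30.8 to 47.1) and 32.0% (24.7 to 41.2) in those libraries. In G11 the values were 21.2% and 14.2%, and in G12 11.1% and 9.29%, with overlapping intervals. In G14 they were 1.96% and 1.97%, and in G13 0.599% and 1.81%, the other way round, again with overlapping intervals. How much of this gap in G5 and G3 goes with the listing by control reads was not tested.

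One further reference isoform, ENST00000513029.5, falls outside the 5% rule and is given because it is the annotated decay form with the upstream first exon. It was chosen after its values were seen. It had 9 reads in the control, 6 in G5, 2 in G3, 4 in G11, 3 in G12 and none in G14 or G13. Its share of RNF44 reads was 1.47% in the control (0.774 to 2.77) and 2.97% in G12 (1.02 to 8.37), and the intervals of its level in G3, G5 and G11 held 100%. In the table it ends at 176526708, beyond the annotated end of ENST00000513029 at 176528958, so the listed form reaches farther 3′ than the GENCODE 29 model.

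Use of the first exons was compared over all isoforms. Of reads starting in either first exon, the downstream one held 444 of 606 in the control, or 73.3% (Wilson interval 69.6 to 76.6). It held 71.0% in G5 (67.1 to 74.7), 71.7% in G3 (66.6 to 76.3), 69.1% in G11 (60.9 to 76.1) and 73.7% in G12 (64.3 to 81.4). It held 10 of 14 reads in G14 (71.4%, 45.3 to 88.3) and 8 of 9 in G13 (88.9%, 56.5 to 98.0). All 6 intervals of the G libraries overlapped that of the control, so no difference in first exon use was detectable at this depth. In G14 and G13, with 14 and 9 such reads, the intervals are wide.

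By level, transcripts from the downstream first exon went from 26.4 TPM in the control to 15.2 in G5, 13.05 in G3, 4.61 in G11, 2.74 in G12, 0.477 in G14 and 0.351 in G13. Those from the upstream first exon went from 9.64 TPM to 6.21, 5.16, 2.06, 0.975, 0.191 and 0.0439 TPM in the same libraries. The second series has the same order as the first, and its last value is a single read. Isoforms starting in neither first exon held 7 control reads and at most 9 reads in any other library.

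The 3′ ends fell into a main cluster at 176526703 to 176526718 and 2 smaller ones at 176527273 to 176527299 and 176526944 to 176526967. The main cluster held 1661 of the 1764 reads and the smaller ones 66 and 25. A further cluster of 7 reads and 3 isoforms, at 176530111 to 176530139, lay upstream of the last exon. In ENST00000274811 the poly(A) signal AATAAA begins 32 bases before the most read position of the main cluster. Of the 7736 main transcripts compared, 62.6% held this signal in their last 50 bases. Neither of the 2 smaller clusters, of 66 and 25 reads, had AATAAA in the 50 bases before its most read position. The one most read at 176527281 lies 578 nt upstream of the main end, and 7 of the 20 bases after it are A, and 10.9% of windows of this length in the transcript hold at least as many.

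The main end held 560 of 613 reads in the control (91.4%, 88.9 to 93.3), 95.3% in G5 (93.2 to 96.8), 97.9% in G3 (95.7 to 98.98), 95% in G11 (90.0 to 97.6) and 96.0% in G12 (90.3 to 98.4). In G14 it held 11 of 15 reads (73.3%, 48.0 to 89.1) and in G13 7 of 9 (77.8%, 45.3 to 93.7). The end 578 nt upstream held 27 reads in the control (4.40%, 3.04 to 6.33), 20 in G5 (3.61%), 5 in G3 (1.51%), 6 in G11 (4.29%) and 2 in G12 (1.98%). It held 4 of 15 reads in G14 (26.7%, 10.9 to 52.0) and 2 of 9 in G13 (22.2%, 6.32 to 54.7). For this upstream end only the G14 interval lay wholly above that of the control, and the lower bound for G13 fell just short. For the main end only the G3 interval lay wholly above that of the control (95.7 to 98.98 beside 88.9 to 93.3).

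In G14 transcripts with the main end were thus at 1.58% of the control (0.782 to 2.84) and those with the upstream end at 11.9% (3.02 to 34.1). In G13 the values were 0.921% (0.369 to 1.91) and 5.46% (0.629 to 21.7), with overlapping intervals. The upstream-end values of G13 and G14 together rest on 6 reads of 4 isoforms. The main-end values rest on 11 reads in G14 and 7 in G13.

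**Figure D4:**
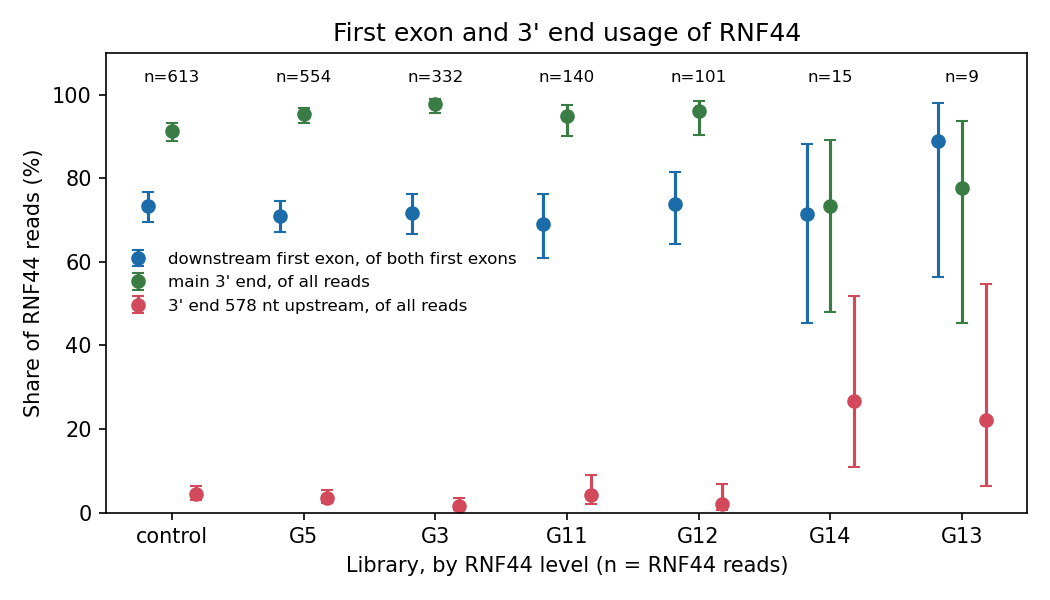
Share of RNF44 reads (percent, bars are Wilson 95% intervals) that use the downstream first exon, the main 3′ end and the 3′ end 578 nt upstream, in 7 libraries ordered by RNF44 level, with the number of RNF44 reads above. First exon shares stay between 69.1% and 73.7% down to G12, and the upstream end reaches 26.7% in G14, where 15 reads remain.

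Reads of the locus under other IDs were looked for next. On the same strand, 4 isoforms without a gene ID lay within RNF44 and held 6 control reads, 1 each in G5, G3 and G14, and none in the other 3. On the opposite strand 2 isoforms overlapped the gene, with 2 reads in the control and 1 in G12. None of these listed IDs thus held reads in number near the difference between the control and G13 or G14. An isoform without a control read is not listed and could not be found this way. Listed isoforms held 98.6% of all reads in G13 and 98.4% in G14, beside 100% in the control. Isoforms of the same strand that run past the ends of the gene were not searched.

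The 5 genes on each side with at least 5 TPM were KIAA1191, NOP16, HIGD2A, CLTB and FAF2 before RNF44 and SNCB, TSPAN17, UIMC1, ZNF346 and FGFR4 after it. None of the 10 was at least 2-fold lower in all 6 G libraries, a call made for 0.8% of the genes compared (63 of 7877). At least 2-fold lower were 3 of 10 in G5, 1 in G3, 2 in G11, 1 in G12, 4 in G14 and 3 in G13, and none was 2-fold higher in any library. As shares these were 30% in G5, 10% in G3, 20% in G11, 10% in G12, 40% in G14 and 30% in G13, beside 10.1%, 5.14%, 10.4%, 8.79%, 18.9% and 14.6% of all genes. With the length and GC trend removed, none of the 14 calls was left. The median log2 ratio of the 10 was -0.09 in G5, 0.03 in G3, -0.38 in G11, -0.43 in G12, -0.83 in G14 and -0.58 in G13, beside medians over all genes of 0.14, 0.12, -0.04, -0.16, -0.10 and -0.21.

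The nearest neighbours were FAF2 (176447628 to 176510074), a factor of endoplasmic reticulum protein degradation, and SNCB (176620084 to 176630556), β-synuclein. FAF2 was at 38.3 TPM in the control and 23.0 (G14) to 39.4 TPM (G12) in the G libraries. SNCB was at 25.1 TPM in the control and 8.40 (G14) to 18.99 TPM (G3). CLTB, a clathrin light chain, had the lowest median log2 ratio of the 10 (-1.27), and ZNF346, a zinc finger protein, the highest (0.27). FGFR4, an FGF receptor, was at 10.5 TPM in the control, 13.5 in G5, 15.7 in G3, 7.10 in G11, 5.06 in G12, 5.25 in G14 and 2.19 in G13. FGFR4 was thus lowest in G13 like RNF44, but G3 and G5 were above the control. The same held for TSPAN17 (89.1 TPM in the control, 43.2 in G13), KIAA1191, UIMC1 and ZNF346.

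NOP16, a nucleolar protein, was at 203 TPM in the control and 89.5 (G5) to 153 TPM (G12) in the G libraries. UIMC1, a ubiquitin-binding protein of DNA repair, had a median log2 ratio of 0.12. The median was 0.04 for KIAA1191, -0.78 for HIGD2A, a mitochondrial protein, and -0.10 for TSPAN17, a tetraspanin.

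The relatives of RNF44 were examined as a list of 25 RING finger ligases, mostly of the H2 type, of which 24 were in the table and 18 passed 5 TPM. At least 2-fold lower were 2 of 18 in G5, 1 in G3, 1 in G11, 1 in G12, 2 in G14 and 1 in G13, shares of 5.56% or 11.1% beside the backgrounds given above. At least 2-fold higher was 1 gene in G14 and none elsewhere, where all genes gave 0.533% in G5, 1.89% in G3, 0.724% in G11, 0.546% in G12, 3.97% in G14 and 1.04% in G13. The median of the list lay between -0.11 (G13) and 0.22 (G5).

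PJA2, a ligase for regulatory subunits of protein kinase A, was the one relative of those compared at least 2-fold lower in all 6. It passed the mean of 5 TPM only through its control level, so that filter favoured a lower value in the G libraries. It was at 14.7 TPM in the control, 2.95 in G5, 1.79 in G3, 4.22 in G11, 4.65 in G12, 1.81 in G14 and 5.05 in G13. G13 was its highest G library and RNF44's lowest. RNF4, which ubiquitinates SUMO-modified proteins, had the highest median (0.63), at 180 TPM in the control and 220 (G3) to 367 TPM (G14).

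Of 30 listed E1 and E2 enzymes, 25 passed 5 TPM. None was at least 2-fold lower in all 6 G libraries and none higher in all 6, a call made for 0.178% of genes. The counts at least 2-fold lower were 2 of 25 in G5, 2 in G3, 3 in G11, 0 in G12, 4 in G14 and 0 in G13, and none was 2-fold higher in any. As shares these were 8%, 8%, 12%, 0%, 16% and 0%, beside 10.1%, 5.14%, 10.4%, 8.79%, 18.9% and 14.6% of all genes. UBE2T, the E2 of the Fanconi anaemia pathway, had the lowest median log2 ratio (-1.16), at 193 TPM in the control and 68.3 (G14) to 126 TPM (G12). UBE2H had the highest (0.54), at 7.92 TPM in the control and up to 14.6 TPM in G13. UBE2D2 and UBE2D3, which work with many RING ligases, had medians of -0.08 and 0.31.

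Of the 7 genes for AMPK subunits, 6 passed 5 TPM. PRKAA1, the α1 catalytic subunit, had the highest median log2 ratio (0.57). It was at 24.0 TPM in the control, 33.2 in G5, 21.9 in G3, 36.2 in G11, 35.4 in G12, 45.3 in G14 and 39.3 in G13, so its transcript was above the control in 5 of 6 G libraries and below it in G3. The link reported in melanoma cells concerns the α1 protein, which was not measured here. The PRKAA1 transcript is 35.8% GC, and the part of base composition or of RNF44 in its level was not tested. PRKAB2, a β regulatory subunit, had the lowest median (-1.14) and was at least 2-fold lower in 4 libraries, from 15.2 TPM in the control to 5.71 in G11. This made 1 of 6 (16.7%) in each of G11, G12, G14 and G13, beside 10.4%, 8.79%, 18.9% and 14.6% of all genes. No other member was 2-fold lower, and none was 2-fold higher, in any library. The other 4 had medians from -0.17 (PRKAA2) to 0.49 (PRKAB1).

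Genes were then ranked by likeness to RNF44, as Pearson's r of log2(TPM + 0.5) over the 7 libraries, among 6619 genes with a mean of at least 10 TPM. The values describe these libraries and share their depth and base composition, so no p is given. An r of at least 0.9 was found for 430 of the other 6618 genes and of at least 0.98 for 5. A high r says that the order and spacing of the libraries are alike, not that the fall is as large.

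The most alike was PRPF8 (r 0.998), the core protein of the catalytic centre of the spliceosome. It was at 20 TPM in the control, 14.9 in G5, 13.8 in G3, 8.74 in G11, 7.65 in G12, 3.53 in G14 and 3.07 in G13, the same order of libraries as RNF44. Next was USP19 (r 0.991), a deubiquitinase, at 18.7 TPM in the control and 2.32 TPM in G13, with a log2 ratio of -0.10 in G3. PRPF8 and USP19 passed the mean of 10 TPM only with the control counted, so that filter favoured a lower value in the G libraries. RPS6KB2 (r 0.988), a ribosomal S6 kinase, went from 127 TPM in the control to 45.4 in G13, DERPC (r 0.983) from 70.0 to 29.2, and AKAP8 (r 0.982), a nuclear anchoring protein for protein kinase A, from 20.5 to 13.6. With the length and GC trend removed, r was 0.93 for PRPF8, 0.98 for USP19, 0.88 for RPS6KB2, 0.70 for DERPC and 0.38 for AKAP8. Their GC content ran from 51.9% (AKAP8) to 62.3% (RPS6KB2).

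The 3 genes with the lowest r were BRCC3 (-0.96), a deubiquitinase for lysine 63 chains, CD300A (-0.96), an inhibitory receptor, and OLFML3 (-0.96), a secreted olfactomedin-like protein. BRCC3 was at 50.05 TPM in the control, 65.9 in G5, 56.1 in G3, 90.2 in G11, 102.9 in G12, 134 in G14 and 122 in G13. Its order was nearly the reverse of that of RNF44, with a log2 range of 0.16 to 1.41 above the control.

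**Figure D5:**
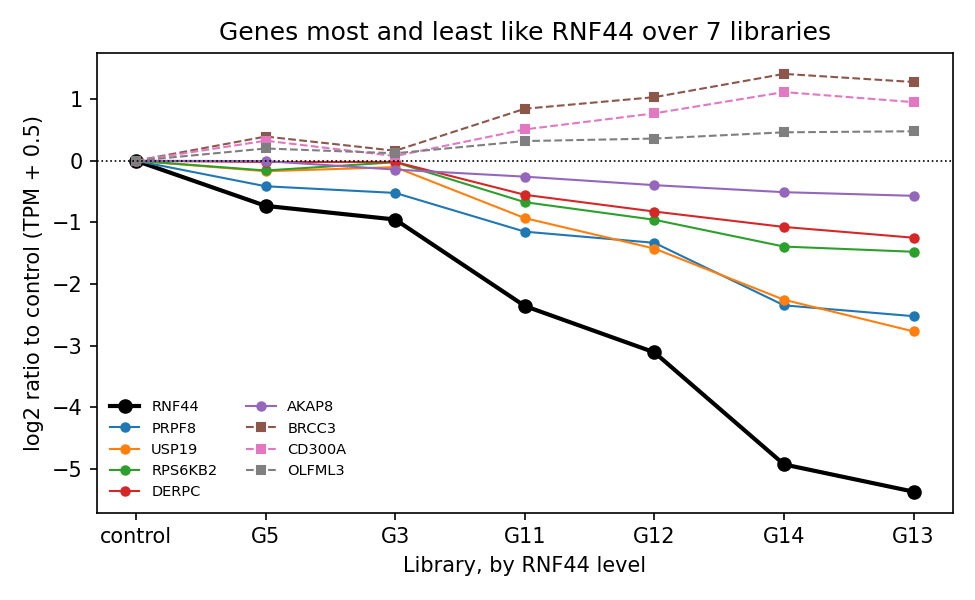
Log2 ratio to the control, on log2(TPM + 0.5), of RNF44 (black), the 5 genes most like it (solid lines) and the 3 least like it (dashed lines) in 7 libraries ordered by RNF44 level. The lines join separate libraries and show no time or dose, and the alike genes fall by less than RNF44, PRPF8 to -2.52 and RNF44 to -5.37 in G13.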

How the data were processed

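The authors deposited 1 table with full-length-read counts and TPM for each isoform in 7 libraries. Per the labels' protocols, cDNA was joined into 8-fold arrays (MAS-Seq), sequenced on Revio and split in software; the submitters' processing notes name minimap2 2.17 and GRCh38 (hg38), while the isoform caller, its filters and the annotation are not given in the sources used here. Every listed isoform had a control read, and empty cells were read as 0. The deposited TPM equalled count over library total to within 0.0081, so TPM was recomputed from counts. Isoforms were summed by Ensembl gene ID stem; 14287 of 14294 genes had a symbol. Starts are printed with 1 added, which leaves ends uncertain by at least 1 base. Exons came from GENCODE 29; transcript IDs were matched without version, and 7736 of 7877 genes compared had length and GC.

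With 1 library per group no test was run. Ratios of reads have exact (Clopper-Pearson) intervals, shares Wilson intervals and levels exact Poisson intervals, all at 95%. Ends were joined within 50 nt. The named genes are RNF44, its isoforms with at least 5% of reads, in each gene list (the marker lists apart) the genes 2-fold lower in all 6 G libraries or else the lowest median, and the highest median, the neighbours, and the 5 most and 3 least alike genes; 1 further gene of the rule is not reported here. Gene, lists and rules were chosen with earlier results of these data known. Scripts (Python 3.11.15, numpy 2.4.6, pandas 2.3.3, scipy 1.17.1) were tested on simulated data.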

Additional observations from a re-analysis of the deposited data

How the results depend on the processing

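No paired analysis was possible because each group has 1 library. All ratios rest on the single control library, and the values of G13 and G14 rest on 9 and 15 reads. The median RNF44 log2 ratio of -2.73 ranged from -3.11 to -2.36 when G libraries were left out in turn. A pseudocount of 0.1 or 1 TPM, rescaling by the median of ratios, and joining ends within 20 or 100 nt moved no RNF44 value past its counting interval. The ratios that did move kept their sign except where the control was not the reference.

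With isoforms of reference ID only, the RNF44 log2 ratio was -2.07 in G11, -2.36 in G12, -3.81 in G14 and -3.94 in G13. The G14 and G13 values rest on 2 reads and 1 read, where the added 0.5 TPM makes the fall look smaller. By reads, ENST00000274811.9, the main such isoform, was at 1.32% of the control in G14 and 0.604% in G13. With isoforms of at least 1 TPM on average the RNF44 log2 ratio was -0.45 in G5, -0.67 in G3 and -2.07 in G11. With at least 5 control reads, a setting chosen after seeing the data, it was -0.51 in G5 and -0.70 in G3. With the length and GC trend removed it was -0.91 in G5, -1.51 in G3, -1.87 in G11, -2.25 in G12, -4.10 in G14 and -3.86 in G13. Against the median of the other 6 libraries it was 2.00 in G5 and 1.78 in G3, which reversed the sign because most of those libraries were lower still, and -0.33 in G11, -1.45 in G12, -3.27 in G14 and -3.71 in G13.

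With reference IDs only, the downstream first exon held 93.2% in the control, 94.9% in G5, 97.3% in G3, 87.1% in G11, 90% in G12, and 100% in G14 and G13. These reference isoforms held only 2 reads in G14 and 1 in G13, so no shift can be read from the 100%. It also held 100% in G13 with at least 5 control reads, on 4 reads. With reference IDs only, the main 3′ end held 99.2% in the control, 96.7% in G12 and 100% in G5, G3, G11, G14 and G13. In G14 and G13 this again rests on 2 reads and 1 read.

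Without a TPM filter, genes at least 2-fold lower numbered 1237 in G5 (798 with it), 642 in G3 (405), 1616 in G11 (817), 1546 in G12 (692), 2525 in G14 (1486) and 2373 in G13 (1147). With the length and GC trend removed they numbered 187, 101, 239, 191, 537 and 377 in the same order. At a minimum of 10 TPM, G12 had 450. Values at least 2-fold lower, summed over the 6 libraries, went at that minimum from 8 of 108 to 2 of 84 for the RING relatives. They went from 11 of 150 to 8 of 132 for E1 and E2 enzymes, 4 of 36 to 0 of 30 for AMPK subunits and 14 of 60 to 8 of 48 for the neighbours. With the trend removed they went from 11 to 5 for E1 and E2 enzymes and 14 to 0 for the neighbours. For AMPK subunits they rose from 4 to 6 of 36, and for the RING relatives they were 8 of 102. Apart from the change of reference and of the genes or isoforms counted, the cause was not tested.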

Other observations

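Of the marker genes above 5 TPM on average, 3 were also lowest in G13, and they were chosen after their values were seen. COL1A1, a collagen gene of mesenchymal cells, was at 16.4 TPM in the control, 16.7 in G5, 30.3 in G3, 6.82 in G11, 4.76 in G12, 3.20 in G14 and 1.58 in G13. DNMT3B, the de novo DNA methyltransferase of pluripotent cells, was at 44.3 TPM in the control, 48.4 in G5, 68.0 in G3, 28.4 in G11, 22.6 in G12, 23.97 in G14 and 13.4 in G13. LIN28A, an RNA-binding protein of pluripotent cells, was at 170 TPM in the control, 182 in G5, 179 in G3, 138 in G11, 97.5 in G12, 93.8 in G14 and 73.2 in G13. Unlike RNF44, none of the 3 was below the control in G3 or G5.

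The RBFOX motif TGCATG occurred 3 times in the ENST00000274811 sequence of GENCODE 29, at transcript positions 2587, 2765 and 2769, the last 2 overlapping. All lie in the annotated 3′ UTR, before the 3 most read 3′ end clusters. Of 846 main transcripts within 10% of its length, 66.4% held the motif, with a median of 1 match. A match is a description and not a shown binding site. Introns were not searched.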
